A study of Mus musculus with 38 samples.

Results

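The second day of the primed to naive transition (PNT) was examined as a direct day-to-day contrast: 2 libraries of cells on day 2 in iCD1 medium were compared with 2 libraries on day 1, 4 of the 38 libraries of the series, chosen by their titles. The cells were mouse epiblast stem cells (EpiSC), which resemble the epiblast after implantation, carrying a stably integrated Klf4 transgene (kEpiSC). Klf4 is a transcription factor of the naive state, the state of embryonic stem cells. The methods of the study describe a lentiviral Klf4 vector, a line with an Oct4-GFP reporter, and replating in the presence of a ROCK inhibitor for a day before the medium was changed to iCD1, a chemically defined reprogramming medium. The other groups of the same line used here were kEpiSC before the change of medium (n = 2), day 3 in iCD1 (n = 2), the induced pluripotent stem cells obtained from the transition (kiPSC, n = 2), and a parallel series in iCD1 with JNKi, the inhibitor SP600125 of the c-Jun N-terminal kinases, on days 1 (n = 2), 2 (n = 3) and 3 (n = 2, used only in the fit). The labels give no concentration of JNKi for these libraries. All groups carried the Klf4 transgene, so none of them shows the effect of iCD1 without it, and no source used here says whether the replicates were separate cultures. If they were not, the p-values measure only the spread between these samples.

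When primed cells meet strong WNT and FGF signals in the absence of signals that hold pluripotency, they can pass through a primitive streak state marked by T, Mixl1 and Eomes, then a presomitic state in which the Notch-driven segmentation clock runs, and then a somite state marked by Meox1, Foxc2 and Pax3. Retinoic acid signalling and the stepwise activation of the Hox clusters accompany this path in the embryo. Naive pluripotency is marked instead by Nanog, Esrrb, Zfp42, Dppa5a and Klf factors.

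Expected counts summed to 7.941 and 8.456 M (mega) on day 1 and to 6.938 and 6.341 M on day 2, and the 10 largest genes held 4.7% to 5.13% of them. Levels are given as CPM, counts scaled to library totals normalised by TMM, always for replicate 1 and then replicate 2. A gene is called when its adjusted p in edgeR's quasi-likelihood test (Benjamini-Hochberg over 14892 genes) is under 0.05. The 2 replicates differed by more than counting noise on both days (chi-square per degree of freedom 4.29 on day 1 and 5.57 on day 2), so no library was a copy of another. The difference between gene length and effective length follows fragment length. Its median, over genes above a minimum effective length, was 155.8 and 169.2 bases on day 1 and 172.8 and 179.1 on day 2. The part of fragment length in the results was not tested.

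Between days 1 and 2, many genes of the primitive streak and of epithelial adhesion fell, as did Pou5f1, which encodes Oct4, while many genes of the segmentation clock, the somite, the Hox clusters and the retinoic acid pathway rose. Of 14892 genes tested, 2454 were called (16.5%), of which 1057 were higher on day 2 (7.10%) and 1397 lower (9.38%). A change of at least 2-fold was found for 1449 of them (9.73%), 515 higher and 934 lower. Without regard to the test, both day 2 libraries were above both day 1 libraries for 29.6% of genes and below for 31.6%. The count of called genes fell when a library was left out, to between 1242 (without day 1 replicate 2) and 1456 (without day 2 replicate 2), with 1413 without day 1 replicate 1 and 1316 without day 2 replicate 1. RNA was taken from whole cultures, so fewer cells of a type and less RNA per cell cannot be told apart in any of these values.

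**Figure D1:**
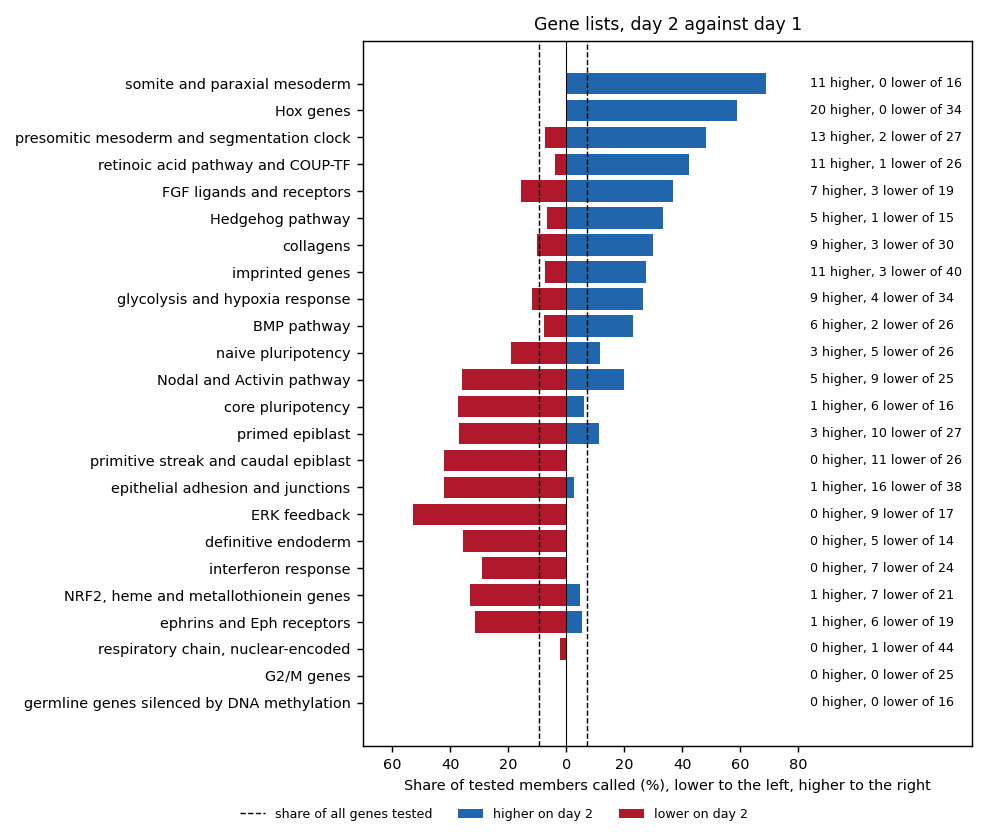
Share of tested members of 24 gene lists that were called higher (blue, to the right) or lower (red, to the left) on day 2 than on day 1, in percent, with the counts at the right. Dashed lines mark the shares of all genes tested, 7.10% higher and 9.38% lower; the somite, Hox and presomitic lists lie to the right and the streak, epithelial and ERK feedback lists to the left.

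Promoters of the segmentation clock genes are shown first, since the clock is driven by Notch, whose DNA-binding partner RBPJ recognises the letters GTGGGAA, and several of these genes rose together. The 250 bases before the RefSeq start (GRCm38.p6, the assembly of mm10) were searched on both strands, and the matching letters are in capitals. Hes5 (chr4:154960673-154960922, plus strand) holds GTGGGAA 83 to 77 bases before its start and the reverse complement 226 to 220 bases before it. Lfng (chr5:140607091-140607340, plus strand) holds it 109 to 103 bases before its start, and Hes7 (chr11:69120203-69120452, plus strand) holds the reverse complement 180 to 174 bases before its start.
Hes5: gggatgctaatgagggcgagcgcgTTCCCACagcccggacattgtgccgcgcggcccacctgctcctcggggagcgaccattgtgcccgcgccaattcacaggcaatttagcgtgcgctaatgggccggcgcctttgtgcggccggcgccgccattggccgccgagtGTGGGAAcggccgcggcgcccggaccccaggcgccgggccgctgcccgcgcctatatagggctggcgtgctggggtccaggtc
Lfng: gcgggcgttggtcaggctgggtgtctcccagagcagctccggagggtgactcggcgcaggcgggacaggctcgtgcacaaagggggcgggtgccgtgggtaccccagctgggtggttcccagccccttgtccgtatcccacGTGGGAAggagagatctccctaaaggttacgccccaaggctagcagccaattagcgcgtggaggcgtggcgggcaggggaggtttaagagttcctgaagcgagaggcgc
Hes7: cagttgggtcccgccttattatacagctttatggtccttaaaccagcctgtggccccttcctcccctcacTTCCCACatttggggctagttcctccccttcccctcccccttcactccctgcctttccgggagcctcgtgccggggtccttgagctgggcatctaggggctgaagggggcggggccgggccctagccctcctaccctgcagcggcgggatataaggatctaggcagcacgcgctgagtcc

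Of the 24 members of the presomitic and clock list with a promoter in the table, 5 held the letters (20.8%), the others being Hey2 and Msgn1, against 605 of 11147 promoters of tested genes (5.43%). Among all genes higher on day 2 the share was 5.43% (42 of 774) and among genes lower on day 2 5.75% (61 of 1061), both near the share of all promoters. Of the 5 list members with a match, Hes5, Lfng and Hey2 were called higher, Hes7 was not called and Msgn1 was called lower. Mesp2, Pcdh8, Ripply2 and Nrarp, described below, held no match. A match is a description of these letters and not a binding site.

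The presomitic and clock genes included many of the Notch pathway. Of 27 tested members 13 were called higher and 2 lower, with a median log2 fold change of 0.80, against a median of -0.01 over all genes tested. With 1 library left out, 7 to 12 were called higher and 2 lower. Mesp2, the factor that sets the boundary of the forming segment, was at 0.375 and 0.118 CPM on day 1 and at 23.5 and 11.1 on day 2. Both day 2 libraries lay far above day 1, and the log2 fold change was 6.06 ± 1.01 (SE, adjusted p 5.91e-04). Pcdh8, a protocadherin that Mesp2 turns on at the segment border, went from 4.87 and 2.72 to 61.8 and 57.3 CPM (3.97 ± 0.58, adjusted p 2.09e-04). Ripply2, a repressor that ends the Mesp2 pulse, had 1 count on day 1 and 22 on day 2, a ratio of 27.9 with a 95% counting interval of 4.51 to 1152.

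Several Notch feedback genes moved with them. Nrarp, a Notch target that restrains the pathway, was at 35.5 and 27.5 CPM on day 1 and at 268 and 153 on day 2 (log2 fold change 2.74 ± 0.42, adjusted p 3.08e-04). Both day 2 libraries lay above both day 1 libraries, with replicate 1 the higher. Hes5, a Notch effector whose promoter is printed above, went from 0.625 and 0.355 to 10.3 and 4.33 CPM (3.87 ± 0.82, adjusted p 0.00434). Its relative Hey1 went from 4.87 and 5.21 to 37.5 and 24.0 CPM (2.61 ± 0.40, adjusted p 2.77e-04). Lfng, a glycosyltransferase of the Notch pathway, rose from 36.2 and 32.8 to 136 and 67.9 CPM (1.56 ± 0.43, adjusted p 0.0196). The receptor Notch1 and the DNA-binding partner Rbpj rose less, by 0.80 ± 0.25 (adjusted p 0.0408) and 0.45 ± 0.12 (adjusted p 0.0151). Day 2 replicate 1 was the higher of the day 2 libraries for each of these 6 genes. The calls of Lfng, Notch1 and Rbpj were lost in 3 of the 4 fits with a library left out, and without day 2 replicate 1 their adjusted p was 0.243, 0.273 and 0.119. Those of Hes5 and Ripply2 were lost in 2 of the 4, with a highest adjusted p of 0.0634 without day 1 replicate 2 and of 0.0865 without day 1 replicate 1.

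Other members of the clock did not pass the test. The oscillator Hes7 was at 116 and 90.2 CPM on day 1 and at 119 and 45.7 on day 2, so the days overlap (adjusted p 0.693). Hes1, a relative of Hes5, was not called either, with log2 fold changes of -0.76 to -0.14 when a library was left out. The Notch ligands Dll1 (0.82 ± 0.40, adjusted p 0.186) and Dll3 (0.47 ± 0.28, adjusted p 0.280) had both day 2 libraries above day 1 without being called, and Tbx6, which commits cells to the paraxial path, was at 79.3 and 88.1 CPM before and 135 and 55.1 after. The 2 members that fell were Msgn1, a bHLH factor of the unsegmented presomitic mesoderm, from 68.7 and 63.8 to 28.9 and 15.4 CPM (-1.58 ± 0.31, adjusted p 0.00225), and the Eph receptor Epha4, from 121 and 117 to 67.6 and 62.6 CPM (-0.87 ± 0.16, adjusted p 0.00161).

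Genes of the somite, the segment that gives vertebrae and muscle, rose. Of 16 tested members 11 were called higher and none lower, with a median log2 fold change of 2.41, and 9 or 10 were called higher and 0 or 1 lower with a library left out. Another 7 listed genes were below the filter, and 2 of these were at 0 in all 4 libraries. The list's summed level rose from 166 to 175 CPM on day 1 to 796 to 860 on day 2. Meox1, a homeobox factor of early somites, was at 3.50 and 6.4 CPM on day 1 and at 206 and 254 on day 2 (5.52 ± 0.47, adjusted p 1.30e-06). Foxc2, a forkhead factor of the paraxial mesoderm, went from 0.250 and 0.829 to 69.4 and 56.4 CPM (6.81 ± 0.66, adjusted p 4.07e-06). For both genes each day 2 library lay far above each day 1 library.

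Genes that mark the parts of a somite were nearly absent on day 1. Uncx, of the posterior part of the segment, had 2 counts on day 1 and 234 on day 2, a ratio of 148 (95% counting interval 40.6 to 1233). Pax3, of the dermomyotome and the neural crest, had 1 count on day 1 and 71 on day 2 (ratio 90.1, 15.7 to 3608). Dmrt2, of the dermomyotome, had 3 and 115 counts (ratio 48.6, 16.2 to 239). Pax7, the partner of Pax3, rose from 1.25 and 1.42 to 14.7 and 17 CPM (3.55 ± 0.53, adjusted p 2.46e-04). Aldh1a2, the enzyme that makes retinoic acid in somites, rose from 99.8 and 84.9 to 229 and 290 CPM (1.49 ± 0.37, adjusted p 0.0105), a call that was lost in 3 of the 4 fits with a library left out (highest adjusted p 0.102).

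**Figure D2:**
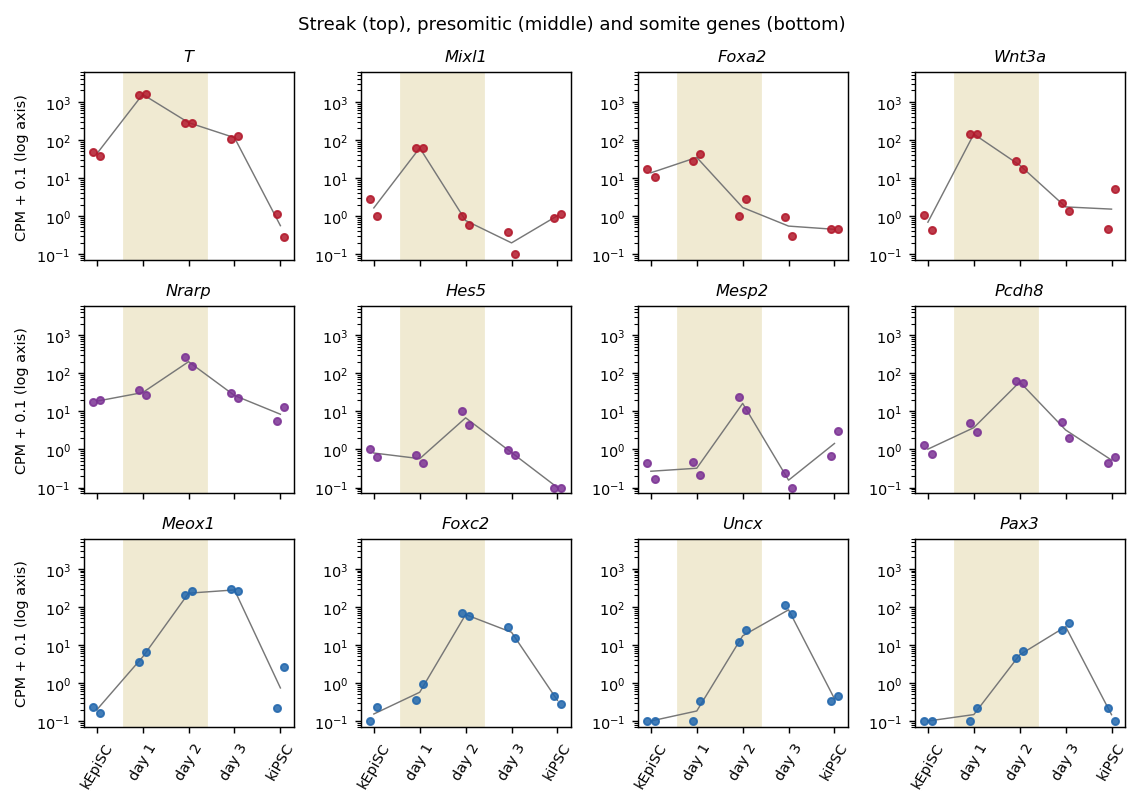
CPM plus 0.1 on a log axis of 4 streak genes (top), 4 presomitic genes (middle) and 4 somite genes (bottom) in kEpiSC, on days 1, 2 and 3 in iCD1 and in kiPSC; points are the 2 libraries of a group, lines join geometric means and the shading marks the contrast described. T falls from 1542 and 1606 CPM on day 1 to 284 and 284 on day 2 while Meox1 rises from 3.50 and 6.4 to 206 and 254.

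The genes of the primitive streak, the site where cells leave the epiblast, fell as the somite genes rose. Of 26 tested members of the streak list none was called higher and 11 lower, with a median log2 fold change of -1.03, and 10 or 11 were called lower with a library left out. T, the master factor of the streak, dropped from 1542 and 1606 to 284 and 284 CPM (-2.47 ± 0.17, adjusted p 1.42e-07). Mixl1, a homeobox factor of the streak that follows Nodal, dropped from 61.5 and 61.5 to 0.893 and 0.481 CPM (-6.44 ± 0.54, adjusted p 1.76e-06). Foxa2, of the anterior streak and the endoderm, went from 28.4 and 42.0 to 0.893 and 2.72 CPM (-4.29 ± 0.41, adjusted p 3.13e-06). The replicates of T and Mixl1 were closer to each other than the days by a wide margin.

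Caudal epiblast genes were in this group. Nkx1-2, which marks the caudal lateral epiblast, fell from 447 and 446 to 63.6 and 58.0 CPM (-2.88 ± 0.38). The ligand Wnt3a fell from 140 and 144 to 27.2 and 17.1 CPM (-2.68 ± 0.40), and Evx1, a homeobox factor of the posterior streak, from 207 and 231 to 46.7 and 52.1 (-2.15 ± 0.19). Cdx2, a caudal factor upstream of the Hox genes, fell from 324 and 363 to 116 and 139 CPM (-1.43 ± 0.29). Eomes, Wnt8a, Wnt5b and Grsf1 made up the rest, by -2.51, -1.66, -1.22 and -1.66. The call of Eomes, at 5 and 5.68 CPM on day 1, was lost in 3 of the 4 fits with a library left out (highest adjusted p 0.108). Grsf1 encodes an RNA-binding protein and is not a streak factor by function. Cdx1 (0.01), Fgf8 (-0.23), Lhx1 (-0.03) and Snai1 (0.11) were at log2 fold changes near 0 and did not pass.

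T is a known target of WNT signalling, whose TCF factors bind CTTTGAA or CTTTGAT. In the 250 bases before the start of T (chr17:8434173-8434422, plus strand) the reverse complement of CTTTGAA lies 235 to 229 bases before the start, in capitals here.
T: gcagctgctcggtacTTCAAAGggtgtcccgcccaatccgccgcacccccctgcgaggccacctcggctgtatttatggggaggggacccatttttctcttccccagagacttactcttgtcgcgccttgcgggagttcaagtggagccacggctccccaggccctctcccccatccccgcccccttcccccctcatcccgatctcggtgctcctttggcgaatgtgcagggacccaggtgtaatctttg

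Either spelling occurred, on either strand, in 609 of 11147 promoters of tested genes (5.46%). It was found in 3 of 21 promoters of the streak list (14.3%) and in 3 of 24 of the presomitic and clock list (12.5%). The share was 7.07% among genes lower on day 2 (75 of 1061) and 3.88% among genes higher on day 2 (30 of 774). Of 24 tested WNT feedback genes 3 were called higher and 3 lower (median -0.05), and 0 to 3 and 2 or 3 with a library left out. Axin2, the general readout of the pathway, was at 276 and 245 CPM on day 1 and 202 and 199 on day 2 and was not called (adjusted p 0.536). Of the list of WNT ligands, Frizzled receptors and R-spondins 5 of 36 were called higher and 8 lower (median -0.29), and 2 to 4 and 5 to 8 with a library left out. The ligands Wnt10a (-4.42 ± 0.70), Wnt2b (-3.45 ± 0.59) and Wnt3a fell, while the ligand Wnt8b went from 3 counts on day 1 to 50 on day 2, a ratio of 21.2 (95% counting interval 6.83 to 106). The receptor Fzd2 rose from 48.6 and 51.2 to 239 and 204 CPM (2.15 ± 0.20, adjusted p 2.58e-06).

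Placed beside the adjacent steps, which share the day 1 or the day 2 libraries with the contrast and so are not independent of it, the streak list rose and then fell. From kEpiSC to day 1, 19 of 26 streak genes were called higher and 3 lower (all genes: 23.2% higher, 23.1% lower). T was at 48.0 and 38.5 CPM in kEpiSC. From day 2 to day 3 none of the streak list was called higher (all genes: 6.13% higher, 6.10% lower), and T fell further, to 103 and 127 CPM. Mesp2, Pcdh8, Nrarp and Hes5 peaked on day 2: on day 3 they were at 0.144 and 0, 5.31 and 1.86, 30.1 and 22.7, and 0.861 and 0.620 CPM. Meox1 (296 and 262), Pax3 (24.3 and 37.2) and Uncx (111 and 62.9) were at or above their day 2 level on day 3. Foxc2 was lower again on day 3, at 29.9 and 15.3 CPM (log2 fold change -1.46 from day 2, called lower). Of the 16 tested somite genes, 2 were called higher and 2 lower between days 2 and 3. In kiPSC T was at 1.03 and 0.175 CPM and Meox1 at 0.115 and 2.45.

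Hox genes, which give position along the body axis, rose in all 4 clusters. Of 34 tested 20 were called higher and none lower, with a median log2 fold change of 1.54 over the 33 with a count on either day, and 12 to 16 were called higher with a library left out. By position in the cluster, 11 of 12 members of paralogue groups 6 to 9 were called, with a median of 2.50. Of groups 3 to 5, 7 of 10 were called (median 1.16), of groups 1 and 2, 1 of 5 (median -0.05), and of groups 10 to 13, 1 of 7 tested among 12 in the tables. One of these 7, Hoxc12, was at 0 in all 4 libraries, and the other 6 ranged from -1.19 to 2.80. By cluster the median, again without Hoxc12, was 1.10 in A, 0.72 in B, 1.88 in C and 3.27 in D, with 5 called genes in each.

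Hoxd3 went from 9.87 and 7.82 to 95.4 and 117 CPM (3.59 ± 0.28, adjusted p 6.10e-07), and Hoxd9 from 3.87 and 2.37 to 55.1 and 51.6 (4.09 ± 0.45, adjusted p 1.99e-05). Hoxa9 was at 2.62 and 4.62 CPM on day 1 and at 47.9 and 90.2 on day 2 (4.24 ± 0.59, adjusted p 1.22e-04), and Hoxd8 at 1.5 and 1.42 and then 21.9 and 24.2 (3.97 ± 0.39). Hoxb9 was already at 66.9 and 70.0 CPM on day 1 and reached 261 and 234 (1.86 ± 0.35, adjusted p 0.00175). The anterior genes Hoxb1 (162 and 161 CPM, then 112 and 118; adjusted p 0.0835) and Hoxb2 (111 and 112, then 102 and 114) did not pass. In the group 10 to 13 genes the only called one was Hoxa10, from 0.625 and 1.89 to 8.19 and 9.77 CPM, and its call was lost in each of the 4 fits with a library left out (highest adjusted p 0.203). The spans of 11 of the 39 Hox genes overlap another Hox gene in the annotation, among them 8 of the 20 called, so counts could be split between neighbours. Between kEpiSC and day 1, which shares the day 1 libraries, 31 of the 34 were called higher, and between days 2 and 3, which shares the day 2 libraries, none was called higher and 2 lower.

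**Figure D3:**
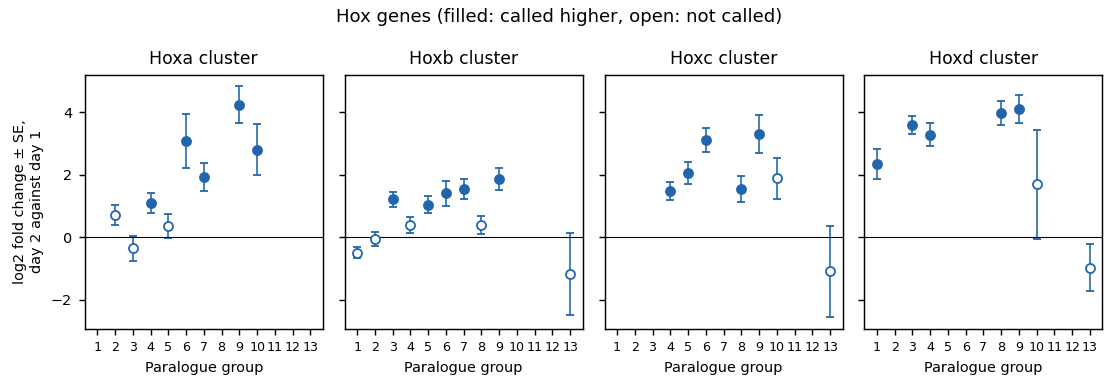
log2 fold change (± SE) between day 2 and day 1 of Hox genes, by cluster (panels) and paralogue group (x axis); filled points were called higher and open points were not called, and Hoxc12, listed at 0 in all 4 libraries, is among those left out. Groups 6 to 9 have 11 of 12 points filled, with values of 0.39 to 4.24, and groups 1 and 2 have 1 filled point.

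The retinoic acid list, which includes the COUP-TF nuclear receptors, had 11 of 26 members called higher and 1 lower (median 0.74), with 7 to 10 higher when a library was left out. Nr2f1 was at 0 in both day 1 libraries and at 22.0 and 21.6 CPM on day 2, at least 120-fold higher with 3 counts set over the day 1 group. Its relative Nr2f2 went from 0.5 and 0.237 to 28.7 and 30.1 CPM (6.27 ± 0.49, adjusted p 6.10e-07). Rarb, a retinoic acid receptor that the ligand itself induces, rose from 1.25 and 1.66 to 15.6 and 17.3 CPM (3.48 ± 0.45, adjusted p 6.38e-05). Stra6, the uptake receptor for retinol, rose from 42.9 and 35.9 to 241 and 298 CPM (2.77 ± 0.22, adjusted p 7.70e-07). The Hox cofactors Meis1 (3.23 ± 0.22) and Meis2 (2.28 ± 0.25) and the retinoic acid binding protein Crabp1 (2.39 ± 0.23) rose too. The exception was the receptor Rxrg, which fell from 9.75 and 11.3 to 0.596 and 0.320 CPM (-4.46 ± 0.63, adjusted p 1.90e-04). Cyp26a1, the enzyme that degrades retinoic acid, was at 14.6 and 22.5 CPM and then at 22.0 and 30.6, and the days overlap (adjusted p 0.258).

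Nodal, Activin and ERK pathway genes fell in part between days 1 and 2. In the Nodal and Activin list 9 of 25 tested members were lower and 5 higher (median -0.31), and 6 or 7 and 1 to 3 with a library left out. Fst, the secreted inhibitor of Activin, fell from 547 and 517 to 39.9 and 47.7 CPM (-3.60 ± 0.30, adjusted p 9.99e-07). In kEpiSC Fst was at 20.3 and 14.4 CPM, below its level on both days. Foxh1, the DNA-binding partner of the pathway's SMADs, fell from 80.8 and 71.3 to 31.7 and 25.5 CPM (-1.41, adjusted p 5.58e-05). Inhbb, an Activin subunit, had 71 counts on day 1 and 2 on day 2, a ratio of 28.0 (95% counting interval 7.46 to 235). Smad3 rose from 52.7 and 49.5 to 108 and 110 CPM (1.09, adjusted p 8.95e-06). Nodal (8.75 and 8.17, then 1.79 and 3.84 CPM; adjusted p 0.119) and its inhibitors Lefty1 and Lefty2 (adjusted p 0.479 and 0.156) did not pass. Day 2 replicate 2 held the highest level of both Lefty genes, 132 and 153 CPM, against 53.7 and 67.7 in replicate 1.

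The ERK feedback list holds inhibitors that FGF and ERK signalling switch on, and also the transcription factor Etv4. Of its 17 tested members 9 were lower, Etv4 among them, and none higher (median -0.65), with fewer lower when a library was left out. Spry4 went from 196 and 180 to 60.6 and 45.8 CPM (-1.82 ± 0.29, adjusted p 4.78e-04), Dusp4 from 276 and 278 to 86.5 and 115 (-1.46 ± 0.17, adjusted p 2.65e-05) and Dusp6 from 333 and 283 to 132 and 140 (-1.18 ± 0.25, adjusted p 0.00375). Both day 2 libraries were below both day 1 libraries for these 3 genes. In kEpiSC Spry4 was at 54.2 and 66.9 CPM, Dusp4 at 82.6 and 99.1 and Dusp6 at 261 and 314. On day 2 Spry4 and Dusp4 thus overlapped their kEpiSC levels, and Dusp6 lay below its own. FGF ligands and receptors were called in both directions, 7 higher and 3 lower of 19, and 4 or 5 and 1 or 2 with a library left out. Fgf9 had 3 counts on day 1 and 96 on day 2, a ratio of 40.6 (95% counting interval 13.5 to 200), and Fgf18 rose from 0.750 and 0.474 to 7.59 and 5.61 CPM (3.41 ± 0.60). Fgf8, the ligand of the streak and presomitic gradient, was at 86.5 and 94.3 and then at 68.5 and 85.5 CPM (adjusted p 0.666), and the receptor Fgfr1 fell from 463 and 399 to 297 and 264 (-0.62), a call that was lost in 2 of the 4 fits with a library left out (highest adjusted p 0.0861).

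BMP pathway genes that passed the test were mostly higher. Of 26 tested members 6 were higher and 2 lower (median 0.19), and 3 or 4 and 1 or 2 with a library left out. The BMP target Id2, an inhibitor of bHLH factors, went from 7 and 6.51 to 51.7 and 98.4 CPM (3.47 ± 0.42, adjusted p 3.53e-05), Id1 from 55.6 and 40.6 to 112 and 119 (1.26 ± 0.20, adjusted p 4.77e-04), and Msx2 from 0.750 and 0.711 to 4.62 and 5.29 (2.73 ± 0.51). Nog, the secreted BMP antagonist Noggin, fell from 8.37 and 6.87 to 0.149 and 0.641 CPM (-4.24 ± 0.60, adjusted p 1.56e-04). The ligand Bmp4 was at 15.6 and 20.1 and then at 18.5 and 17.8 CPM (adjusted p 0.984). Of the Hedgehog list 5 of 15 were higher and 1 lower, and 3 and 0 with a library left out. The higher ones included the target Ptch1 (0.69 ± 0.14, adjusted p 0.00245, and 0.0560 without day 2 replicate 1) and the transcription factor Gli3 (0.96 ± 0.14, adjusted p 2.44e-04).

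Core pluripotency genes that passed the test were mostly lower. Of 16 core genes 6 were lower and 1 higher (median -0.58). Pou5f1, which encodes Oct4, fell from 521 and 503 to 112 and 125 CPM (-2.11 ± 0.25, adjusted p 2.52e-05), and L1td1, an RNA-binding protein of pluripotent cells, from 63.9 and 73.7 to 16.4 and 23.1 (-1.80 ± 0.35). Sox2, the partner of Oct4, went from 129 and 186 to 53.7 and 75.8 CPM (-1.29 ± 0.28, adjusted p 0.00442) and Utf1 from 11.4 and 12.6 to 2.53 and 3.04 (-2.10 ± 0.65, adjusted p 0.0364). In kEpiSC Pou5f1 was at 1448 and 1504 CPM, L1td1 at 741 and 684, Utf1 at 609 and 660 and Sox2 at 92.8 and 79.5. Thus Pou5f1, L1td1 and Utf1 had already fallen by day 1, while Sox2 had risen. From kEpiSC to day 1, 3 of the 16 core genes were called higher and 9 lower. The call of Utf1 was lost in each of the 4 fits with a library left out (highest adjusted p 0.184) and that of Sox2 in 2 (0.0724). Nanog was low on both days, at 9.12 and 14 CPM and then at 11.6 and 5.93 (-0.39 ± 0.63, adjusted p 0.739). The one gene that rose was Tcf7l1, a repressor in the WNT pathway (0.99 ± 0.22, adjusted p 0.00487), with an adjusted p of 0.0674 without day 1 replicate 2. With a library left out, 0 or 1 core gene was called higher and 2 or 3 lower.

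Naive genes went both ways, 3 of 26 higher and 5 lower, and 0 and 3 or 4 with a library left out. Klf5 fell from 58.1 and 44.1 to 5.96 and 11.1 CPM (-2.59 ± 0.39, adjusted p 2.36e-04), Fbxo15 from 14.1 and 19.5 to 2.83 and 4.81 (-2.15 ± 0.36) and Tcea3 from 96.1 and 101 to 30.2 and 31.4 (-1.68 ± 0.25). The genes called higher were low ones: Dppa5a rose from 0.5 and 0.474 to 2.83 and 3.68 CPM (2.70 ± 0.78, adjusted p 0.0261), Dppa3 from 1.75 and 2.37 to 11.3 and 13.6 (2.58 ± 0.69) and Gdf3 from 1.12 and 0.829 to 2.83 and 3.84 (1.76 ± 0.55). Each of these 3 calls was lost in each of the 4 fits with a library left out, with a highest adjusted p of 0.131, 0.130 and 0.212. Dppa5a stood at 1533 and 1399 CPM in kiPSC.

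The other naive anchors stayed without a call. Klf4 was at 142 and 131 CPM on day 1 and at 142 and 149 on day 2 (0.09 ± 0.16, adjusted p 0.770), with reads of the transgene and of the gene itself not separated in the tables. Esrrb was at 11.9 and 11.4 and then at 16.5 and 13 CPM (adjusted p 0.709), against 785 and 517 in kiPSC. Tfcp2l1 (0.78 ± 0.42, adjusted p 0.232), Zfp42 (0.75 ± 0.57, adjusted p 0.425) and Klf2 (0.05 ± 0.35, adjusted p 0.958) did not pass either. Jun, which encodes c-Jun, was at 38 and 52.7 CPM on day 1 and at 65.4 and 118 on day 2, and its rise of 1.02 ± 0.41 missed the threshold (adjusted p 0.110). Of the AP-1 family 2 of 18 were higher, Bach2 and Fosl2, and none lower, and both calls were lost in 2 of the 4 fits with a library left out (highest adjusted p 0.102 and 0.327). Of the primed epiblast list 10 of 27 were lower and 3 higher (median -1.16), and 6 to 8 and 1 or 2 with a library left out. Among the lower ones, Foxa2, Fst, Nkx1-2, Eomes and T were also counted in the streak or the Nodal and Activin list. Of these, Foxa2, Fst, Nkx1-2 and T were called higher on day 1 than in kEpiSC, and Eomes lower. From kEpiSC to day 1, 6 of the 27 primed epiblast genes were called higher and 15 lower. Fgf5, a marker of primed cells, had 17 counts on day 1 and none on day 2 (adjusted p 0.0766).

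**Figure D4:**
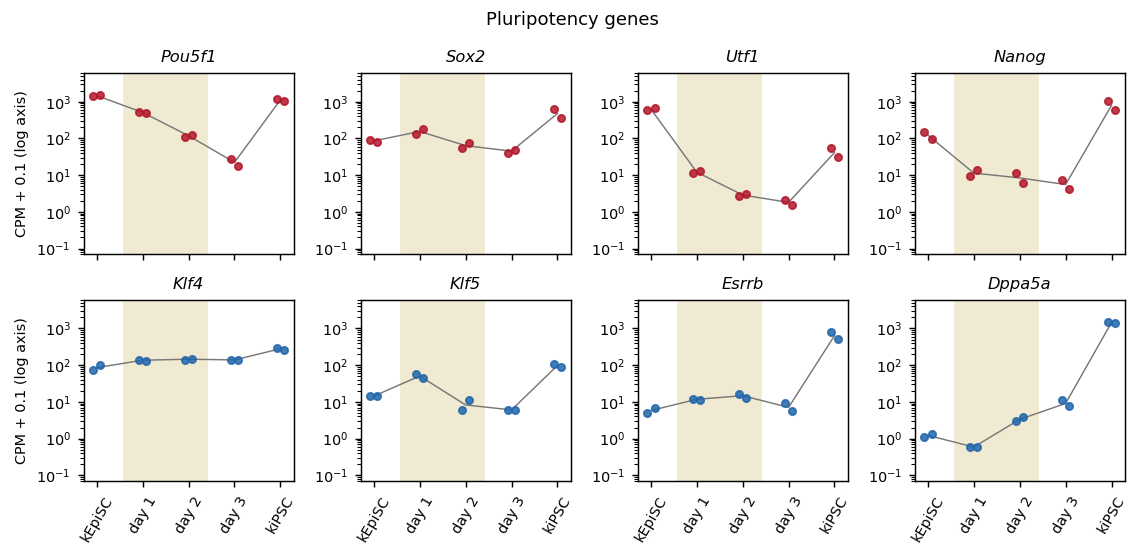
CPM plus 0.1 on a log axis of 8 pluripotency genes in kEpiSC, on days 1 to 3 in iCD1 and in kiPSC; points are the 2 libraries of a group, lines join geometric means and the shading marks the contrast described. Pou5f1 falls from 521 and 503 CPM on day 1 to 112 and 125 on day 2 and is at 1200 and 1056 in kiPSC, while Klf4 is at 131 to 149 CPM on both days.

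Against the difference between the 2 ends of the transition, measured in libraries that share no sample with days 1 and 2, the genes called in the step were set against kiPSC and kEpiSC. Of all genes 28.2% were higher and 29.2% lower in kiPSC than in kEpiSC. Of the 1057 genes higher on day 2, 25% were higher and 40.3% lower in kiPSC. Of the 1397 genes lower on day 2, 27.6% were higher and 38.5% lower in kiPSC. Of the 515 genes higher by at least 2-fold, 28.5% were higher and 31.1% lower in kiPSC, near the shares of all genes, and of the 934 lower by at least 2-fold 24.9% were higher and 39.9% lower. Igf2, for instance, was lower in kiPSC (16.1 and 6.66 CPM) than in kEpiSC (82.7 and 82.2).

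Epithelial genes that passed the test were mostly lower. Of 38 epithelial adhesion and junction genes 16 were lower and 1 higher (median -0.83), although only 4 to 9 were called lower with a library left out. Cdh1, which encodes E-cadherin, fell from 582 and 644 to 175 and 183 CPM (-1.78 ± 0.18, adjusted p 6.06e-06), and the desmosomal cadherin Dsg2 from 189 and 197 to 62.1 and 74.5 (-1.5 ± 0.22). N-cadherin, Cdh2, was at 288 and 276 and then at 311 and 336 CPM and was not called (adjusted p 0.220). Per length, Cdh1 was at 244 and 269 TPM on day 1 and at 70.3 and 74.1 on day 2, and Cdh2 at 128 and 122 and then at 135 and 145, so the order of their levels turned. Of 24 mesenchymal genes 4 were higher and 1 lower (median 0.17), and 3 or 4 and 0 or 1 with a library left out. Twist1, a mesodermal and mesenchymal bHLH factor, rose from 4 and 2.84 to 21.7 and 20.2 CPM (2.61 ± 0.53, adjusted p 0.00299) and Zeb1 by 1.12 ± 0.20. The lower one was Tagln, a smooth muscle actin-binding protein, at 20.1 and 10.4 and then at 2.83 and 4 CPM (-2.16 ± 0.68, adjusted p 0.0401), a call that was lost in 3 of the 4 fits with a library left out (highest adjusted p 0.255).

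Of 30 collagens 9 were higher and 3 lower (median 0.48), and 7 to 9 and 1 to 3 with a library left out. Col3a1 went from 1.00 and 2.25 to 58.8 and 42.5 CPM (4.94 ± 0.55, adjusted p 1.51e-05), and Col2a1, of cartilage and notochord, from 10.2 and 7.82 to 50.6 and 78.8 (2.84 ± 0.27). Col14a1 had 3 counts on day 1 and 388 on day 2, a ratio of 164 (95% counting interval 55.7 to 799). Among Eph receptors, which set boundaries between cells, Epha1 fell from 313 and 320 to 42.1 and 39.6 CPM (-2.95 ± 0.14, adjusted p 4.58e-09) and Epha2 from 210 and 213 to 36.9 and 45.8 (-2.35 ± 0.27), and 6 of the 19 members were lower and 1 higher, against 4 or 5 and 0 to 2 with a library left out.

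Imprinted genes, expressed from 1 parental copy, were called higher in 11 and lower in 3 of 40 tested (median 0.41), and in 7 to 9 and 0 to 2 with a library left out. Igf2, a fetal growth factor, rose from 119 and 145 to 2230 and 1963 CPM (3.99 ± 0.24, adjusted p 5.31e-08), and its neighbour H19, a non-coding RNA of the same locus, from 12.9 and 32.8 to 221 and 421 (3.81 ± 0.54, adjusted p 1.40e-04). Mest (1.64 ± 0.24), Grb10 (1.10 ± 0.15) and Peg12 (1.56 ± 0.34) rose as well. Peg3 fell by 0.58 on the log2 scale, from 968 and 1065 to 687 and 673 CPM. Without day 1 replicate 2 the adjusted p was 0.0638 for Peg12 and 0.0587 for Peg3. Igf2 reached 3983 and 3995 CPM on day 3.

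In metabolism, glycolysis and hypoxia genes split, with 9 of 34 higher and 4 lower (median 0.21), and 4 to 10 and 2 or 3 with a library left out. Slc16a3, the lactate exporter, rose from 19.9 and 23.8 to 230 and 301 CPM (3.60 ± 0.38, adjusted p 9.02e-06), although it stood at 742 and 896 in kEpiSC. Aldoc, a glycolytic aldolase, rose from 10 and 8.17 to 71.3 and 69.4 CPM (2.95 ± 0.27). The hypoxia-response genes Ndrg1 (104 and 109, then 15 and 20.5; -2.59 ± 0.28) and Egln3 (-1.84 ± 0.20) fell. NRF2 and heme genes fell in 7 of 21 members and rose in 1, led by Nqo1 (-2.21 ± 0.31, adjusted p 1.51e-04), and interferon genes in 7 of 24, led by Usp18 (-2.06 ± 0.29, adjusted p 1.96e-04), with none higher. With a library left out, 2 to 5 NRF2 genes and 3 to 5 interferon genes were called lower. Genes of nuclear-encoded respiratory chain subunits (0 higher and 1 lower of 44), G2/M genes (0 of 25 in each direction), the unfolded protein response (0 of 22 in each direction) and germline genes silenced by DNA methylation (0 of 16 in each direction) gave few or no calls at this depth.

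Outside the lists, the largest rises among genes with a mean of at least 10 CPM on the higher day were those of Sim1, Pax2 and Trim9. Sim1, a bHLH-PAS factor of the lateral somite and the kidney duct field, had 1 count on day 1 and 269 on day 2, a ratio of 341 (95% counting interval 60.8 to 13533). Pax2, of the intermediate mesoderm and nervous system, went from 0.5 and 0 to 56.0 and 35.2 CPM (7.46 ± 0.66, adjusted p 2.62e-06). Trim9, a ubiquitin ligase of neurons, went from 0.875 and 0.474 to 66.2 and 48.2 CPM (6.38 ± 0.38, adjusted p 4.41e-08), and Ptprz1, a receptor phosphatase of the nervous system, from 2.37 and 2.96 to 94.1 and 84.4 (5.05 ± 0.26). The others were Pglyrp3, Pcdhac2, Prrx2, Adgrl3, Ptges, Shisa3, Pcsk5 and Itga9, with log2 fold changes of 4.39 to 6.17. Pcdhac2 shares its constant exons with the rest of the alpha protocadherin cluster, so its count is uncertain.

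The largest falls outside the lists were led by Ccno, a cyclin needed for multiciliated cells, which went from 224 and 227 to 1.19 and 0.641 CPM (-7.90 ± 0.43, adjusted p 1.83e-08). Upp1, uridine phosphorylase, fell from 119 and 122 to 2.98 and 5.45 CPM (-4.85 ± 0.23, adjusted p 4.43e-09) and stood at 253 and 235 in kiPSC. Alox15, a lipoxygenase, fell from 226 and 257 to 10.9 and 11.9 CPM (-4.41 ± 0.28, adjusted p 8.11e-08), and Npy, neuropeptide Y, from 63.0 and 78.5 to 2.08 and 2.4 (-4.97 ± 0.41). Ccno and Alox15 were at 6.99 and 4.56 and at 15.4 and 11.2 CPM in kEpiSC, so their day 1 level lay above both neighbours. Scn9a, Cyp11a1, Mug2, Galnt17, Trim67, Btla, Ptprt and Chst1 were the others, with log2 fold changes of -6.16 to -4.01. Mug2 has close paralogues, among which counts could be split.

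Markers of other cell types were examined as whole lists. The core pluripotency list summed to 2086 to 2109 CPM on day 1 and to 1223 to 1382 on day 2. Of 14 definitive endoderm genes 5 were called lower and none higher, and their sum went from 286 to 329 CPM to 121 to 126. With a library left out 1 to 3 were called lower: the calls of Epcam and Hhex were lost in each of the 4 fits and those of Foxa1 and Krt19 in 2. Sox17 was at 1.75 and 2.96 CPM and then at 0.744 and 0.801. Neural ectoderm genes were called higher in 3 and lower in 2 of 15, and in 1 or 2 each way with a library left out. Their sum went from 421 to 426 CPM to 135 to 169, of which Nes, an intermediate filament of neural progenitors, was 309 and 296 and then 34.2 and 42.0 CPM (-2.99 ± 0.31, adjusted p 8.40e-06), while Ncam1, Pax6 and Nkx6-1 were the 3 higher ones. The fibroblast and feeder list was called higher in 4 and lower in 3 of 17 (3 or 4 and 0 to 2 with a library left out), and its sum went from 221 to 226 CPM to 325 to 383. Col1a1, its defining collagen, was at 3.87 and 6.16 CPM on day 1 and at 2.38 and 4.81 on day 2. Primitive endoderm (2 higher, 5 lower of 18) and trophoblast genes (2 higher, 4 lower of 15) were called in both directions, with 1 or 2 higher and 2 lower, and 1 or 2 higher and 1 to 4 lower, when a library was left out, and the defining markers Gata4 (0.5 and 1.18 CPM, then 0 and 0) and Elf5 (1.87 and 0.355, then 1.79 and 1.76) were low throughout. Lateral plate and cardiac genes were called higher in 3 and lower in none of 12 (1 or 2 higher with a library left out), with Osr1 at 0 on day 1 and at least 10.6-fold higher on day 2, a call that was lost in 3 of the 4 fits with a library left out (highest adjusted p 0.0837). Neural crest and plate border genes were called higher in 5 and lower in 1 of 17 (3 or 4 and 0 or 1 with a library left out), and the higher ones included Pax3 and Pax7 of the somite list, while Sox10 (adjusted p 0.0505) and Foxd3 (adjusted p 0.931), which define the crest, did not pass. The part of such cells in the results was not tested.

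The same step with JNKi, in 5 libraries that share none with the contrast, was called for many of the same genes. Between JNKi day 1 and JNKi day 2, 2960 genes were called (19.9%), 1336 higher (8.97%) and 1624 lower (10.9%). Of the 2454 genes called without JNKi, 1964 were called with it in the same direction, 80% of the calls without and 66.4% of the calls with JNKi, and 1 was called in the opposite direction. T fell with JNKi by 2.16 on the log2 scale, Mixl1 fell by 5.62 and Pou5f1 fell by 1.73, and Meox1 rose by 5.48, Nr2f2 by 6.48 and Igf2 by 3.48. Of the somite list 11 members were called higher and 1 lower with JNKi, and of the Hox genes 24 and 1. Naive genes were called higher in 9 and lower in 4 with JNKi, among them Tfcp2l1 (1.41) and Zfp42 (1.47), which were not called without it, and a difference in calls is not a test of the difference.

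**Figure D5:**
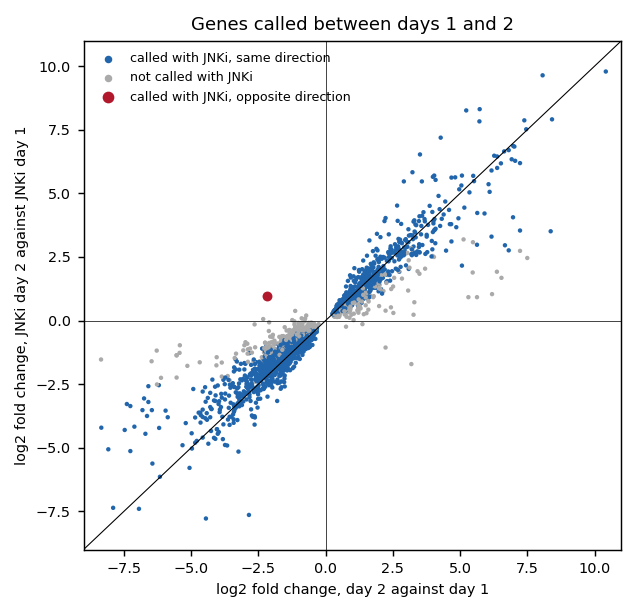
log2 fold change with JNKi (y axis, JNKi day 2 against JNKi day 1) against that without JNKi (x axis, day 2 against day 1) for the 2454 genes called without JNKi; blue genes were also called with JNKi in the same direction, grey genes were not called with it, and the line marks equal values. The 1 red gene, Gm6741, was called lower without JNKi and higher with it.

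The difference between the steps was tested as an interaction, and no gene passed (0 of 14892, 0%), with 205 at an unadjusted p under 0.05. DESeq2 called 1 gene and limma on log2(TPM + 1) called 1. For T the interaction was 0.31 ± 0.21, for Pou5f1 0.39 ± 0.32, for Meox1 -0.04 ± 0.75, for Klf4 0.17 ± 0.22 and for Jun -0.63 ± 0.55 (each adjusted p 1.000). These values do not show that JNKi left the step as it was.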

How the data were processed

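Gene expression was measured by RNA-seq in 38 libraries, of which 17 belonged to the Klf4 line. The labels name a TruSeq kit and an Illumina NextSeq instrument, the methods another library kit. Reads were aligned by the authors to mm10 with Bowtie2 and quantified with RSEM (submitters' processing notes, no versions), and the deposited tables give expected counts and TPM for each of 29267 genes per library. Strand of counting is not given in the sources used here, so overlapping and antisense genes may share reads.

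Expected counts were rounded, filtered with filterByExpr (minimum count 10), scaled by TMM and tested with edgeR 4.0.16 (quasi-likelihood F test, R 4.3.3) in 1 fit of the 17 libraries, with 9 residual degrees of freedom and Benjamini-Hochberg adjustment over 14892 genes. The SE of a log2 fold change was its size divided by the square root of F. With 2 against 2 libraries an exact permutation test cannot reach the threshold, so p-values come from the fit. Alternatives were RLE scaling, DESeq2 1.42.0, limma 3.58.1 on log2(TPM + 1), other filters, other sets of libraries, a replicate block and leaving out each library. On simulated counts for this contrast (14685 genes), 20.0% of genes changed 1.5-fold, 50.7% changed 2-fold and 72.3% changed 4-fold were called. Of unchanged genes 0.062% were called. Only 65 to 67 genes were changed at each size, far fewer than were called in the data, so these shares need not hold for the contrast.

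Intervals of ratios of counts are exact at 95%, and floors set 3 counts over a group at 0. Both cover counting error only. The members and lists were chosen with earlier results of these data known. Of 1251 list entries 1240 were matched by symbol and 5 by synonym. Named genes were the anchors, up to 6 called members of each list with the largest change, members that missed the test, and up to 12 genes in each direction outside the lists. Further list members, Gm6741 and Defa3 were chosen after their values were seen. Promoters came from RefSeq (GRCm38.p6). Some results are not reported here.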

Additional observations from a re-analysis of the deposited data

Results flagged for a closer look

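Only the named genes called between days 1 and 2 were searched for opposite steps. In 2 of them the step moved one way in every library without JNKi and the opposite way with JNKi. Gm6741, a processed pseudogene, was at 7.87 and 9 CPM on day 1 and at 2.08 and 1.60 on day 2 without JNKi (log2 fold change -2.18 ± 0.42, edgeR adjusted p 0.00195), and at 4.59 and 8.95 and then at 13.8, 13.8 and 12 with JNKi (0.95 ± 0.32, edgeR adjusted p 0.0480). The difference of the steps was 3.13, with an adjusted p of 0.362 in edgeR, 0.00159 in DESeq2 and 0.134 in limma. Reads of a pseudogene can be shared with its parent gene, so its count is uncertain. Cer1, a secreted inhibitor of Nodal, had 2 counts on day 1 and 16 on day 2 without JNKi, a ratio of 10.2 (95% counting interval 2.39 to 91.0), and its call was lost in 3 of the 4 fits with a library left out (highest adjusted p 0.24 in edgeR). With JNKi it was at 0.741 and 0.746 CPM and then at 0.280, 0.249 and 0.125, which was not called (adjusted p 0.127 in edgeR). The difference of the steps was -4.90 with an adjusted p of 1.000 in edgeR.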

How the results depend on the processing

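The count of genes called between days 1 and 2 (2454) stayed within 1.5 times under RLE scaling, DESeq2, limma and both other filters (2012 to 2984). It was 1083 with all 38 libraries in 1 fit and 1242 to 1456 with 1 library left out, where the lone library of a day is assumed to vary like the other groups. At 2-fold or more, 1449 genes became 845 with all 38 libraries and 935 to 1068 with 1 library left out. The JNKi step (2960) gave 1378 with all 38 libraries and 1325 to 2732 with a library left out. The step from day 2 to day 3 (1821) gave 532 with all 38 libraries and 535 to 994 with a library left out, and its 913 higher and 908 lower calls became 1235 and 426 in limma. For the interaction, DESeq2 and limma called 1 gene each (Gm6741 and Defa3) and the fit without a filter called 25. The cause of these shifts was not tested.

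The difference between replicates 1 and 2 on day 1 hardly correlated with that on day 2 (correlation 0.06 over 14892 genes). From 2 libraries a day, this value cannot decide whether the numbers pair the samples. With a replicate block in the fit 2637 genes were called between days 1 and 2, and in a fit of only the 4 libraries 3452 without and 4184 with a replicate block. Of 265 named genes called, 124 were called under every alternative that gave a value and 151 with each of the 4 libraries left out, and none reversed. Calls were lost by 115 with all 38 libraries, 68 to 89 with 1 library left out and 46 in limma. At this depth genes of a few counts, such as Dppa5a and Ripply2, are the least certain.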
